A study of Mus musculus with 24 samples.

Results

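The collagen genes of the mouse olfactory epithelium are described here across 8 groups of mice that breathed an odorant or clean air. Every gene whose symbol has the form Col, a number, the letter a and a number was taken, which gave 44 of the 57010 genes of each deposited count table. They fell into 11 fibrillar genes (types I, II, III, V, XI, XXIV and XXVII), 6 genes of basement membrane type IV and 27 genes of other types. The symbol alone decided membership, though earlier results of these data were known when the members were chosen. A filter on low counts left 42 of the 44 for testing in one table and 40 in the other.

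Collagens are secreted proteins of intertwined chains that give tissues their mechanical frame. Fibrillar collagens assemble into the banded fibrils of bone, tendon and connective tissue, and type IV forms the sheet-like network of the basement membranes under epithelia and around vessels. The remaining types decorate fibrils, form beaded filaments or hexagonal networks, anchor epithelia, or span cell membranes. In the nose the olfactory epithelium lies on a basement membrane above a connective tissue layer with glands, vessels and nerve bundles, and that layer rests on the bone and cartilage of the turbinates and septum.

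The study sequenced poly(A) RNA of olfactory epithelium to follow its response to single odorants and to pairs of them. All animals were male wild-type C57BL/6J mice, 8 weeks old, kept singly in odor-free chambers for 4 h and then exposed for 90 min to 10 µL of liquid on filter paper. In the AD table the groups were no odor (empty paper), acetophenone, decanal and a 1:1 mixture of both, and in the OC table they were no odor, octanal, cis-3-hexenol and a 1:1 mixture of both. Each of the 8 groups had 3 biological replicates, so there were 24 libraries. Tissue was perfused and homogenised in a buffer with cycloheximide and calyculin A, spun in steps, and RNA was taken from the homogenate. Each odorant group was set against the no-odor group of the same table. The 3 comparisons of a table share that control, so they are not independent of each other.

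Sequence upstream of the start site is shown for 3 fibrillar genes, because this class moved most widely and its members differ in what precedes their start. RefSeq start-site windows on build GRCm38.p6 were found for 35 of the 44 genes. Entries are missing for Col1a1, Col2a1, Col4a3, Col5a2, Col9a3, Col12a1, Col14a1, Col22a1 and Col26a1. The 250 bases before the start were searched on both strands for 3 strings. They were CCAAT, the core of the element of that name, then the TATA box letters TATAAA, and then the GC box letters GGGCGG, and no match of one overlaps a match of another in the stretches printed. Capitals mark each match, also where it reads as the reverse complement, and each stretch is on the plus strand at chr1:45311288-45311537, chr2:27886175-27886424 and chr3:114030290-114030539.
Col3a1: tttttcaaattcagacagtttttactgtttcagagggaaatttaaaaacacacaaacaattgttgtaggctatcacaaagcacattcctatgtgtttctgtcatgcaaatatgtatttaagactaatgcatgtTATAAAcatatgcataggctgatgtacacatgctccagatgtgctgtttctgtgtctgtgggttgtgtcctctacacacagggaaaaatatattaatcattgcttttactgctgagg
Col5a1: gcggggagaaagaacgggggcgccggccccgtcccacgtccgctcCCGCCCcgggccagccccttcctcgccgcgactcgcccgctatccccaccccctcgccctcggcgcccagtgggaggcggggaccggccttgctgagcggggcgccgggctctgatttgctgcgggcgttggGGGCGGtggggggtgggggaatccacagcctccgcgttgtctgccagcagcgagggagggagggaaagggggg
Col11a1: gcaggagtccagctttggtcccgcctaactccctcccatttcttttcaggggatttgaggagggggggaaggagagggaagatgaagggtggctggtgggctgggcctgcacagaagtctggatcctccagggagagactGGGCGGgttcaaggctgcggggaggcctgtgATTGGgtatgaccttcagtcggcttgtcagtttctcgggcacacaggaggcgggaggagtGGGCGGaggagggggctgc
Col3a1, the type III chain of soft connective tissue, held 1 match, a TATAAA that begins 117 bases before the start. Col5a1, a chain of the type V collagen that sits inside type I fibrils, held 2 GGGCGG. Col11a1, its counterpart in cartilage fibrils, held 2 GGGCGG and a reverse CCAAT. Over the 35 collagen genes, 12 held CCAAT (34.3%, where 33.8% of all 32851 mouse windows do), 5 held TATAAA (14.3% against 12.4%) and 21 held GGGCGG (against 32.7%). Among the 8 fibrillar genes with a window the counts were 3, 2 and 6. A match is a letter string and not a shown binding site.

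The pair Col4a1 and Col4a2, chains of basement membrane type IV, is transcribed in opposite directions from starts 21 bases apart. The 22 bases at chr8:11312805-11312826 from one start to the other, on the plus strand, are given because both genes fell together in the OC table. By these starts the transcripts overlap, so the 22 bases lie inside both and upstream of neither.
Col4a1 and Col4a2: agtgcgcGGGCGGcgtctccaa
They hold a GGGCGG, in capitals, which by these starts is transcribed sequence and not an upstream match. Whether reads were counted by strand is not given in the sources used here. Reads from the overlapping ends of these genes may therefore not be fully separated.

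A library held 20604900 to 24802500 counts in the AD table and 19003800 to 24531300 in the OC table. Levels below are CPM, counts scaled by TMM to a common library size, set within a table, and intervals or p-values cover the spread between these samples. The markers of olfactory sensory neurons were abundant in all libraries, with summed levels of 5 genes from 11777 to 14520 CPM in the AD table and from 12971 to 16966 CPM in the OC table. Markers of bone, cartilage, fibroblasts, vessels and blood were present too, so these libraries hold RNA of more than the epithelium. In bulk tissue, fewer cells of a type and less RNA per cell cannot be told apart.

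In the no-odor controls the order of collagen levels per kilobase of the longest transcript was the same in both tables for the first 6 genes. Col1a2 (ENSMUSG00000029661) and Col1a1 (ENSMUSG00000001506), the chains of type I collagen of bone and connective tissue, stood first, at 112 ± 11.8 and 84.4 ± 8.29 CPM per kb in the AD controls (SD, n = 3). In the OC controls they stood at 231 ± 50.1 and 152 ± 45.3 CPM per kb. Their spreads do not overlap in the AD controls by 1 SD, and they do in the OC controls. Col3a1 followed at 20.3 ± 3.82 CPM per kb in AD controls and 20.8 ± 3.93 in OC controls. Col8a2, a chain of the hexagonal type VIII network, came next at 11.7 ± 0.909 and 12.2 ± 1.34 CPM per kb. Col6a1, a chain of the beaded filaments around cells, stood at 9.42 ± 0.748 and 8.99 ± 0.398, and Col9a1, a chain that coats cartilage-type fibrils, at 7.63 ± 0.278 and 8.40 ± 1.42. Col6a1 and Col9a1 differ by less than their joined spread in the OC controls. With the mean transcript length in place of the longest, Col1a1 stood above Col1a2 in the AD controls, at 281 against 262 CPM per kb, and in the OC controls Col16a1 (16.3 CPM per kb) stood before Col9a1 (14.99), Col9a2 (14.97) and Col6a1 (14.7). The shared order of 6 genes thus holds for the longest transcript.

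Type I made up most of the collagen RNA. Col1a1 and Col1a2 together held from 65.6% to 78.8% of all collagen counts of a library, and the fibrillar class held from 76.4% to 87.8%. The 44 genes took 0.166% ± 0.0171 of all counts in the AD controls (SD, n = 3), with single libraries from 0.146% to 0.178%. They took 0.168% ± 0.0106 after acetophenone, 0.215% ± 0.0337 after decanal and 0.274% ± 0.0659 after the AD mixture. The 3 decanal libraries (0.191% to 0.253%) and the 3 AD mixture libraries (0.203% to 0.333%) all lay above the highest AD control. In the OC table the controls took 0.278% ± 0.0710, from 0.227% to 0.359%. Octanal libraries took 0.136% ± 0.00699, cis-3-hexenol libraries 0.175% ± 0.0159 and OC mixture libraries 0.132% ± 0.00500, and the highest of these 9 libraries, at 0.193%, lay below the lowest OC control. In each of the 5 comparisons without overlap the two-sided exact permutation test gave p = 0.1, the smallest that 3 against 3 libraries allow, and a Benjamini-Hochberg adjusted p of 0.12 over 6 comparisons. For acetophenone p was 0.8. Without Col1a1 and Col1a2 the collagen share was 0.0544% in the AD controls, 0.0555% after decanal and 0.0624% in the AD mixture. Both groups then overlapped the AD controls (permutation p = 0.9 and 0.4). In the OC table that remainder was 0.0669% in the controls and 0.0445%, 0.0492% and 0.0387% after octanal, cis-3-hexenol and the mixture, without overlap. Over all 44 genes the OC controls stood above the AD controls without overlap, and the OC odorant groups lay near the AD controls. The 2 control groups belong to different tables, so any batch effect and the animals cannot be told apart there, and this difference was not tested.

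**Figure D1:**
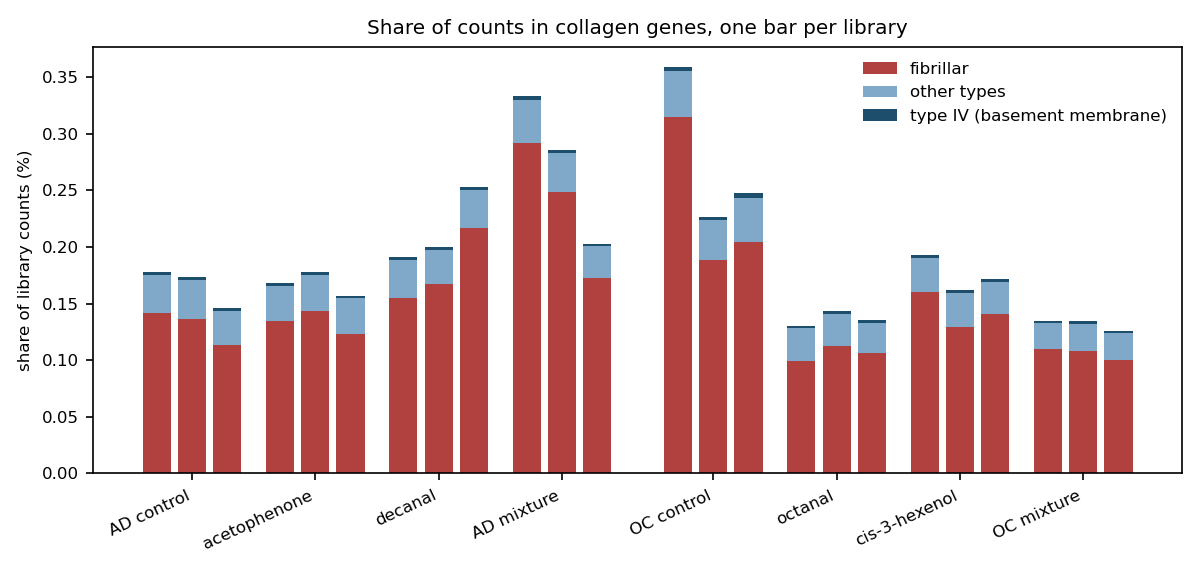
Share of each library's counts in collagen genes (y axis, percent), stacked by class, with one bar for each of the 24 libraries and the groups along the x axis. The 3 OC controls (0.227% to 0.359%) stand above every OC odorant library, and the decanal and AD mixture libraries stand above the AD controls.

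Across single genes the 2 tables differed in the direction of most calls. In the OC table no collagen rose under any odorant, and 32 of the 40 tested members fell in at least 1 comparison, 21 of them in all 3. Of all genes 15%, 6.65% and 12.7% were lower after octanal, cis-3-hexenol and the OC mixture, so at most 6.65% fell in all 3. The share of all genes that fell in at least 1 was not computed, and these comparisons share a control. Against the AD control 8 members rose and 3 fell in at least 1 comparison, with shares called near or under those of all genes (16.7% against 23.9% after decanal and 23.8% against 22.3% in the AD mixture). All 8 that rose there (Col1a1, Col1a2, Col5a1, Col5a2, Col11a1, Col11a2, Col12a1 and Col22a1) fell in all 3 OC comparisons. The 3 that fell in the AD table, Col4a1, Col17a1 and Col18a1, also fell in at least 1 OC comparison. How often all genes were called in both tables in these ways was not computed. Calls are at a Benjamini-Hochberg adjusted p under 0.05 in edgeR's quasi-likelihood test over all genes of a table, and all adjusted p-values below are of that kind. In all, 8 members tested in both tables passed in none of the 6 comparisons: Col4a3, Col4a4, Col4a5, Col4a6, Col20a1, Col24a1, Col25a1 and Col26a1. Col6a6 and Col19a1 were below the filter in both tables, and Col6a4 and Col15a1 were tested in the AD table only.

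**Figure D2:**
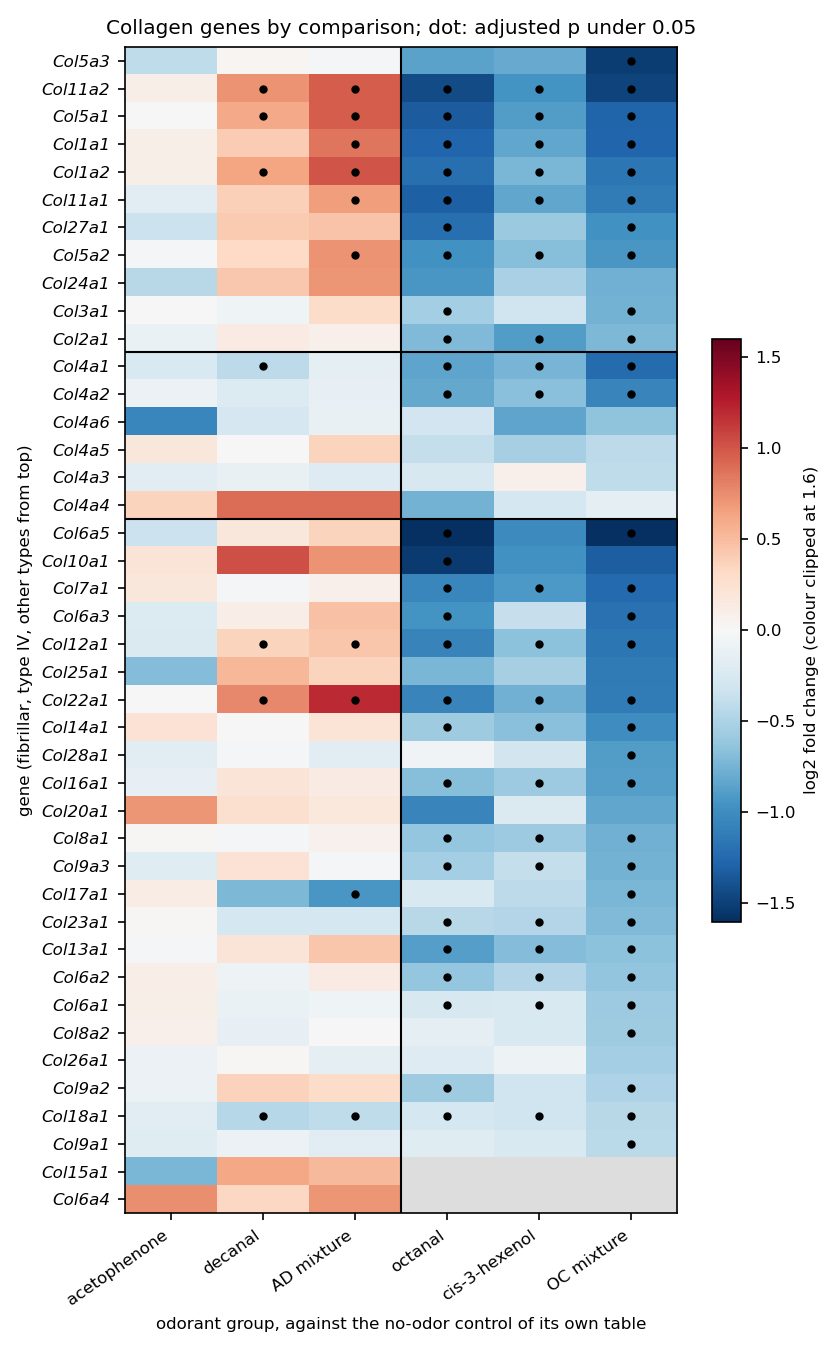
Log2 fold change (colour) of each tested collagen gene (rows, in the order fibrillar, type IV and other types) in the 6 comparisons with the no-odor control of the same table (columns); dots mark an adjusted p under 0.05 and grey cells genes not tested. The 3 OC columns are blue almost throughout, with 27, 21 and 31 dots, and the decanal and AD mixture columns carry red dots mainly in the fibrillar rows.

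Acetophenone, an aromatic ketone, left no collagen gene past the test. In edgeR 0 of 42 members were called, against 0.00512% of all genes tested, with 2 members at an unadjusted p under 0.05, and DESeq2 called 0. How many of all genes had that unadjusted p was not counted. The 3 members of smallest p were Col4a1 at -0.25 on the log2 scale (SE 0.11, adjusted p = 0.714), Col9a1 at -0.20 (SE 0.09, adjusted p = 0.747) and Col12a1 at -0.24 (SE 0.11, adjusted p = 0.761). Col1a1 stood at 510, 544 and 447 CPM in the AD controls and at 538, 579 and 478 CPM after acetophenone, so the groups overlapped. Its log2 fold change was 0.09, with an interval of 2 SE from -0.25 to 0.42. The median over the 42 members was -0.05, and over all genes tested 0.01.

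Decanal, a straight-chain aldehyde, was followed by higher levels of 5 collagen genes and lower levels of 2 (16.7% of 42 members called, against 23.9% of all genes). Calls among collagens were thus no more frequent than over the whole table. Higher calls were 11.9% of members against a background of 11.4%, and lower calls 4.76% against 12.5%. Col22a1, which marks junctions of tissues such as muscle with tendon, stood at 4.10, 3.78 and 3.50 CPM in the AD controls and at 5.03, 7.84 and 6.55 CPM after decanal. All 3 decanal libraries were above all controls, and the gene rose by a log2 of 0.77 (SE 0.18, adjusted p = 0.00613). Col1a2 stood at 651, 621 and 530 CPM in the controls and at 820, 877 and 1099 CPM after decanal, again without overlap, and rose by 0.63 (SE 0.15, adjusted p = 0.00531). Col1a1, its partner chain, reached 543, 593 and 846 CPM, its lowest library fell just inside the control range, and its value of 0.40 (SE 0.17) missed the test (adjusted p = 0.0964). Col11a2, a chain of cartilage-type fibrils, rose by 0.71 (SE 0.17, adjusted p = 0.00779), Col5a1 by 0.61 (SE 0.16, adjusted p = 0.0126) and Col12a1, which bridges type I fibrils, by 0.36 (SE 0.11, adjusted p = 0.0276).

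The 2 genes that fell after decanal belong to basement membranes. Col4a1 stood at 12.68, 13.57 and 13.05 CPM in the controls and at 8.665, 9.628 and 11.13 CPM after decanal, with all 3 decanal libraries below all controls. It changed by -0.42 (SE 0.11, adjusted p = 0.0105). Col18a1, whose C-terminal fragment is endostatin, stood at 19.3, 20.5 and 21.3 CPM and at 15.39, 12.09 and 17.04 CPM, also without overlap, and changed by -0.46 (SE 0.14, adjusted p = 0.0228). The number called was 4 without AD control 2 and 4 without decanal 3, the library with the highest Col1a1. Over all genes the calls numbered 3582 and 3448 there, beside 4660 with every library. Col22a1, Col1a2 and Col4a1 kept their call in each of 14 alternative settings. Col11a2 lost it without decanal 3, Col5a1 without AD control 2 or decanal 3, Col18a1 without AD control 2, AD control 3 or decanal 2, and Col12a1 without any 1 of AD controls 2 and 3 and decanal 1 and 3. Col18a1 and Col12a1 also lost it with length and GC offsets. With no low-count filter 14 of 44 members were called, beside 5002 of 33134 genes, so the statement that calls were no more frequent among collagens depends on the filter. The median over the 42 members was 0.16, with 0.40 for the fibrillar class, -0.17 for type IV and 0.11 for the others, beside 0.01 over all genes.

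The AD mixture gave the widest rise of fibrillar genes. Of 42 members 8 rose (against 10.6% of all genes) and 2 fell (against 11.6%), together 23.8% against 22.3% of all genes, and 6 of the 8 were among the 11 fibrillar genes. Col1a1 reached 1137, 890 and 682 CPM, all above the 447 to 544 CPM of the controls, and rose by 0.85 (SE 0.17, adjusted p = 0.00198). Col1a2 reached 1447, 1290 and 885 CPM against 530 to 651 CPM, without overlap, and rose by 1.01 (SE 0.15, adjusted p = 0.000182). AD mixture 1 was highest and AD mixture 3 lowest for both type I chains. Col5a1 stood at 21.2, 15.4 and 17.4 CPM in the controls and at 43.4, 37.2 and 24.9 CPM in the mixture, and rose by 0.97 (SE 0.16, adjusted p = 0.000535). Col5a2, the other common type V chain, stood at 19.8, 15.7 and 12.8 CPM and at 31.15, 27.71 and 20.87 CPM, and rose by 0.72 (SE 0.14, adjusted p = 0.00216). Neither type V chain overlapped between the groups. Col11a2 went from 13.2, 11.8 and 10.9 CPM to 28.3, 25.2 and 16.8 CPM, a rise of 0.97 (SE 0.17, adjusted p = 0.001). Col11a1 rose by 0.67 (SE 0.15, adjusted p = 0.0046), Col22a1 by 1.20 (SE 0.18, adjusted p = 0.000235) and Col12a1 by 0.45 (SE 0.11, adjusted p = 0.00844).

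Col3a1 did not follow type I in the AD mixture. It stood at 135, 111 and 92.4 CPM in the AD controls and at 163, 159 and 93.2 CPM in the mixture, with overlap, and its value was 0.29 (SE 0.17, adjusted p = 0.246). None of the 6 type IV genes passed, and Col4a1 was at -0.14 (SE 0.11, adjusted p = 0.38). Col17a1, a transmembrane collagen that anchors basal epithelial cells, stood at 4.69, 4.51 and 3.92 CPM in the controls and at 2.52, 2.60 and 1.78 CPM in the mixture, and fell by 0.93 (SE 0.29, adjusted p = 0.0345). Col18a1 changed by -0.40 (SE 0.14, adjusted p = 0.0455), with AD mixture 1 at 19.3 CPM inside the control range and the other two at 13.5 and 13.4 CPM. The 6 fibrillar genes and Col22a1 kept their calls in each of 14 alternatives. Col12a1 lost its call without AD mixture 1, Col17a1 without any 1 of the AD controls, AD mixture 1 or AD mixture 3, and Col18a1 without any 1 of the AD controls, AD mixture 2 or AD mixture 3. Both also lost it with length and GC offsets, with and without the replicate block, and Col18a1 with the 6 libraries of the comparison alone. With no low-count filter 16 of 44 members were called, beside 4722 of 33134 genes. The median was 0.25 over the 42 members and 0.70 over the fibrillar class, beside 0.01 over all genes.

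Between the AD odorant groups, the shares of collagen genes called were near those of all genes, and the calls against acetophenone lay mainly in one direction. In the mixture against acetophenone 11 members were higher and 1 lower (28.6% called, against 25.3% of all genes). Higher calls were 26.2% of members against 11.6% of all genes, and lower calls 2.38% against 13.8%. Col22a1 at 1.19 (SE 0.18, adjusted p = 0.000207) and Col1a2 at 0.91 (SE 0.15, adjusted p = 0.000352) led them. Acetophenone against decanal gave 1 higher and 10 lower (26.2%, against 27% of all genes), with Col12a1 at -0.60 (SE 0.11, adjusted p = 0.0011) of smallest p. There 23.8% of members were lower against 12.6% of all genes, and 2.38% higher against 14.4%. For the mixture against decanal 0 of 42 were called in edgeR, against 0% of all genes, 9 had an unadjusted p under 0.05, and DESeq2 called 0. The number of all genes at that unadjusted p was not counted. There Col5a2 stood at 0.41 (2 SE from 0.13 to 0.70), Col1a1 at 0.45 (0.12 to 0.78) and Col1a2 at 0.37 (0.08 to 0.66), each at an adjusted p of 0.887.

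**Figure D3:**
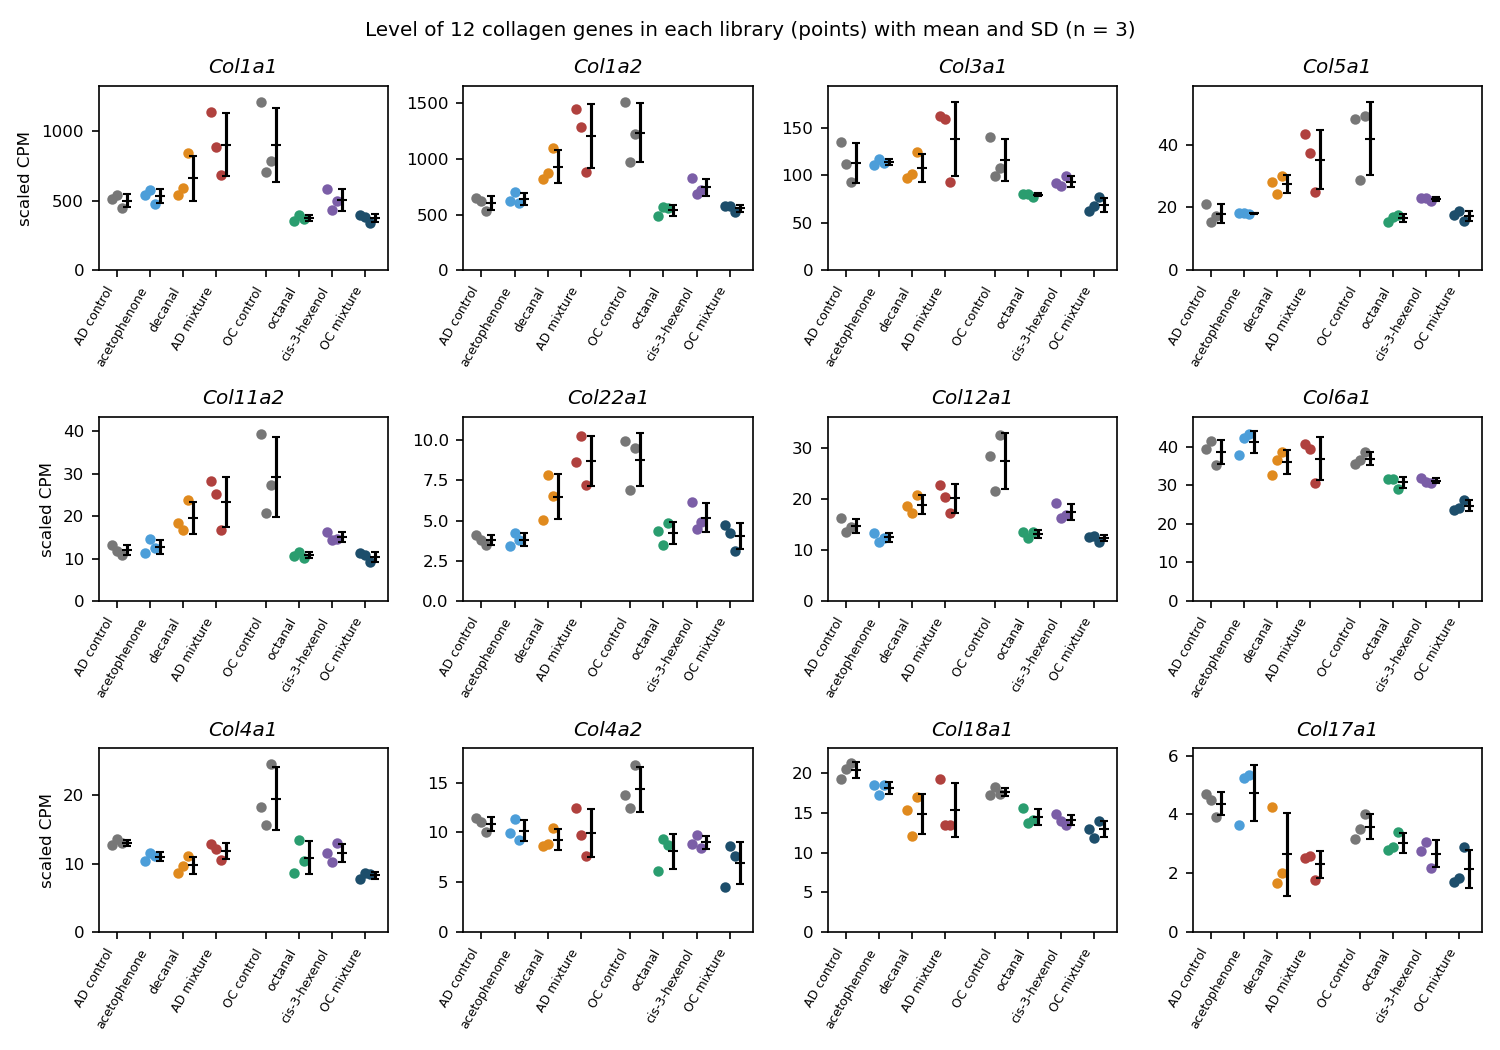
Level of 12 collagen genes in CPM (y axis, from 0) in each of the 24 libraries (points, coloured by group along the x axis), with the mean and SD of each group of 3 beside them. Col1a1 reaches 1208 CPM in OC control 1 and 1137 CPM in AD mixture 1 and lies between 340 and 587 CPM in the 9 OC odorant libraries.

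Octanal, a shorter straight-chain aldehyde, was followed by lower levels of 27 of the 40 tested collagen genes and by no rise (67.5% lower, against 15% of all genes lower and 29.4% called in either direction). The fibrillar class had 9 of 11 lower, type IV 2 of 6 and the other types 16 of 23. Every one of the 40 had a negative value, with a median of -0.75 beside -0.02 over all genes. Col1a1 stood at 1208, 709 and 786 CPM in the OC controls and at 351, 396 and 371 CPM after octanal. Its highest octanal library was thus far below its lowest control, and the change was -1.27 (SE 0.16, adjusted p = 0.000124). Col1a2 stood at 1512, 977 and 1222 CPM in the controls and at 484, 570 and 556 CPM after octanal, with no overlap, and changed by -1.20 (SE 0.13, adjusted p = 8.17e-05). OC control 1 was the highest library for both chains. Without OC control 1 octanal still left 24 members lower, beside 2277 of all 19468 genes tested.

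Types V and XI fell with type I after octanal. Col5a1 stood at 48.12, 28.65 and 48.98 CPM in the OC controls and at 15.3, 16.9 and 17.7 CPM after octanal, a change of -1.33 (SE 0.15, adjusted p = 0.000104). Col5a2 stood at 30.83, 19.05 and 26.43 CPM and at 12.6, 12.99 and 13.61 CPM, a change of -0.96 (SE 0.14, adjusted p = 0.000217). OC control 2 was the lowest control for both, and it still lay above all octanal libraries. Col11a2 went from 39.4, 20.7 and 27.5 CPM to 10.7, 11.6 and 10.2 CPM (-1.44, SE 0.17, adjusted p = 0.000117), and Col11a1 changed by -1.30 (SE 0.19, adjusted p = 0.000259). Col27a1, a fibrillar chain of cartilage, changed by -1.21 (SE 0.20, adjusted p = 0.000563). Col3a1 fell less, from 140, 98.9 and 108 CPM to 80.4, 79.9 and 77.3 CPM, without overlap (-0.55, SE 0.11, adjusted p = 0.00167). Col2a1, the main collagen of cartilage, changed by -0.70 (SE 0.19, adjusted p = 0.0109), and its call was lost without OC control 1.

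Among the other types, octanal left all 4 tested type VI genes lower. Col6a1 stood at 35.5, 36.4 and 38.6 CPM in the OC controls and at 31.6, 31.5 and 29.0 CPM after octanal, a small change without overlap (-0.26, SE 0.07, adjusted p = 0.0121), and the call was lost without octanal 3. Col6a5, a low type VI chain, changed most in size, at -1.65 (SE 0.43, adjusted p = 0.0103), from 0.531 to 1.101 CPM in the controls to 0.255 to 0.336 CPM. Col12a1 stood at 28.3, 21.6 and 32.4 CPM and at 13.6, 12.3 and 13.5 CPM (-1.07, SE 0.13, adjusted p = 0.000105). Col16a1, which associates with small fibrils, stood at 34.1, 28.4 and 37.1 CPM and at 21.1, 21.6 and 19.4 CPM (-0.68, SE 0.10, adjusted p = 0.000323). Both were lower in all 3 octanal libraries than in any control. Col22a1 changed by -1.06 (SE 0.20, adjusted p = 0.00114). Col10a1, the collagen of hypertrophic cartilage, changed by -1.53 (SE 0.47, adjusted p = 0.0244), and that call was lost without OC control 1, octanal 1 or octanal 2. Col8a2, with 46.9, 52.4 and 58.6 CPM in the controls and 51.01, 46.45 and 43.65 CPM after octanal, overlapped and did not pass (-0.16, SE 0.09, adjusted p = 0.192). Col9a1 overlapped too, at 28.01, 30.29 and 38.37 CPM in the controls and 27.03, 25.56 and 31.51 CPM after octanal (-0.20, SE 0.13, adjusted p = 0.28). Its partner Col9a3 fell from 24.6, 18.9 and 23.1 CPM to 16.27, 15.46 and 13.95 CPM (-0.55, SE 0.10, adjusted p = 0.00141).

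cis-3-Hexenol, an unsaturated alcohol, was followed by lower levels of 21 of 40 members and by no rise (52.5% lower, against 6.65% of all genes lower and 5.56% higher). The fibrillar class had 7 of 11 lower, type IV 2 of 6 and the others 12 of 23, and 39 of 40 values were negative, with a median of -0.58 beside -0.01 over all genes. Col1a1 stood at 587, 433 and 494 CPM and Col1a2 at 833, 684 and 717 CPM, all below the OC controls. Their changes were -0.83 (SE 0.16, adjusted p = 0.00606) and -0.73 (SE 0.13, adjusted p = 0.00466). Col11a2 changed by -0.96 (SE 0.17, adjusted p = 0.00507), Col7a1, the anchoring fibril under epithelia, by -0.92 (SE 0.25, adjusted p = 0.0303, lost in 8 of 14 alternatives), Col2a1 by -0.89 (SE 0.19, adjusted p = 0.00954) and Col5a1 by -0.89 (SE 0.15, adjusted p = 0.00441). Col11a1 stood at -0.83 (SE 0.19, adjusted p = 0.0123), Col22a1 at -0.76 (SE 0.19, adjusted p = 0.0211) and Col13a1, a transmembrane collagen, at -0.69 (SE 0.13, adjusted p = 0.00668). Col3a1 did not pass, at 91.3, 88.6 and 99.3 CPM, with 1 library above the lowest control (-0.32, SE 0.11, adjusted p = 0.0665). This comparison rested most on single libraries, with 12 members lower without OC control 3, 14 without OC control 1, 14 without cis-3-hexenol 1, 12 without cis-3-hexenol 2 and 11 without cis-3-hexenol 3. Calls fell over the whole table too, from 1275 genes lower to 686, 855, 694, 527 and 318 in the same order. The comparison gave 12 when counts were adjusted for transcript length and GC content, and 10 when the replicate number was added as well. Over all genes these fits gave 684 and 453 lower. In each of 14 alternatives 9 of the 21 kept their call, among them Col1a1, Col1a2, Col5a1, Col5a2, Col11a2 and Col2a1.

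The OC mixture was followed by lower levels of 31 of 40 members and by no rise (77.5% lower, against 12.7% of all genes). The fibrillar class had 10 of 11 lower, type IV 2 of 6 and the others 19 of 23. All 40 values were negative, with a median of -0.86 beside -0.01 over all genes. Col1a1 stood at 398, 386 and 340 CPM (-1.27, SE 0.16, adjusted p = 0.000179) and Col1a2 at 573, 578 and 520 CPM (-1.15, SE 0.13, adjusted p = 0.000102), both without overlap with the controls. Col5a1 stood at 17.5, 18.7 and 15.5 CPM (-1.28, SE 0.15, adjusted p = 0.000149) and Col11a2 at 11.4, 10.8 and 9.13 CPM (-1.49, SE 0.18, adjusted p = 0.000133). Both lay far below their controls. Col3a1 stood at 62.07, 67.44 and 76.75 CPM, below all controls (-0.75, SE 0.11, adjusted p = 0.000335). Col5a3, a minor type V chain, changed by -1.52 (SE 0.46, adjusted p = 0.0235) at 0.138 to 0.732 CPM, and its call was lost without OC control 3 or OC mixture 3, with length and GC offsets, with and without the block, and with the 6 libraries alone.

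The OC mixture also reached members that octanal and cis-3-hexenol left short of the test. Col8a2 stood at 32.7, 35.1 and 38.4 CPM, below all controls (-0.57, SE 0.09, adjusted p = 0.000572), and Col9a1 at 26.05, 26.32 and 19.31 CPM (-0.43, SE 0.13, adjusted p = 0.0276). The Col9a1 call was lost without OC control 3 or OC mixture 3, with the 6 libraries alone and with offsets and block. The mixture is set against the single odorants below. Col6a1 stood at 23.7, 24.2 and 26.3 CPM (-0.58, SE 0.07, adjusted p = 0.000179), Col12a1 at 12.6, 12.6 and 11.6 CPM (-1.16, SE 0.13, adjusted p = 9e-05) and Col16a1 at 16.4, 18.41 and 19.18 CPM (-0.88, SE 0.10, adjusted p = 0.000133). None of the 3 overlapped with the controls. Col14a1, a fibril-associated collagen of dense connective tissue, stood at 12.4, 11.1 and 15.9 CPM in the controls and at 7.04, 6.30 and 6.36 CPM in the mixture (-0.999, SE 0.14, adjusted p = 0.000271). Col9a3 stood at 13.3, 13.3 and 12.9 CPM (-0.76, SE 0.11, adjusted p = 0.000285). The largest changes among the others were those of Col6a5 at -2.09 (SE 0.46, adjusted p = 0.00433), Col7a1 at -1.24 (SE 0.26, adjusted p = 0.00305) and Col6a3 at -1.19 (SE 0.17, adjusted p = 0.000335). With length and GC offsets Col7a1 stood at -0.65 (adjusted p = 0.0798) and was no longer called. In all 3 OC comparisons Col18a1 was lower by small amounts, -0.28, -0.32 and -0.44. Its octanal call was lost without OC control 1, OC control 2, octanal 2 or octanal 3, and its cis-3-hexenol call without any 1 of the 6 libraries.

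Within type IV, of the 6 chains tested in the OC table, the pair with neighbouring starts fell and the other 4 did not pass. Col4a1 stood at 18.35, 15.67 and 24.59 CPM in the OC controls, at 8.70, 13.6 and 10.5 CPM after octanal, at 11.56, 10.28 and 13 CPM after cis-3-hexenol and at 7.77, 8.64 and 8.53 CPM after the mixture. All 9 odorant libraries lay below the lowest control. Its changes were -0.84 (SE 0.17, adjusted p = 0.0019), -0.75 (SE 0.17, adjusted p = 0.0122) and -1.23 (SE 0.17, adjusted p = 0.000285). Col4a2 stood at 13.7, 12.4 and 16.8 CPM in the controls, at 6.14, 9.38 and 8.78 CPM, at 8.89, 9.74 and 8.43 CPM and at 4.518, 8.595 and 7.652 CPM, again with all odorant libraries below all controls. Its changes were -0.82 (SE 0.20, adjusted p = 0.00644), -0.67 (SE 0.20, adjusted p = 0.0408) and -1.06 (SE 0.20, adjusted p = 0.00187). OC control 3 was highest for both chains, and without it the cis-3-hexenol call was lost for both. That call was also lost for both with length and GC offsets, with and without the block, and without cis-3-hexenol 2, and for Col4a2 without OC control 1, cis-3-hexenol 1 or cis-3-hexenol 3. The octanal call of Col4a2 was lost with the offsets (adjusted p = 0.0586). Col4a5, a chain of the basement membranes of kidney and inner ear among others, was far lower, at 1.957, 2.411 and 2.7 CPM in the OC controls and 0.986, 2.68 and 1.72 CPM after octanal, and overlapped (-0.38, SE 0.34, adjusted p = 0.433). Col4a3, Col4a4 and Col4a6 had group means of about 1 CPM or less, with SEs from 0.41 to 0.82 in the OC table, so only large changes were detectable at this depth.

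The 3 OC odorant groups did not differ from each other in any collagen gene by edgeR's test. Of 40 members 0 were called in each pair, against 0% of all genes, and DESeq2 called 1 for cis-3-hexenol against octanal, 2 for the mixture against octanal and 1 for the mixture against cis-3-hexenol. Over all genes DESeq2 called 246 of 10181, 241 of 10181 and 12 of 14456. At an unadjusted p under 0.05 there were 9, 7 and 16 members. All genes at that p were not counted, so these numbers are not read as particular to collagens. For cis-3-hexenol against octanal, Col1a2 stood at 0.47 (2 SE from 0.22 to 0.73, adjusted p = 0.171), Col6a3 at 0.58 (0.24 to 0.92, adjusted p = 0.203) and Col12a1 at 0.41 (0.15 to 0.66, adjusted p = 0.215). For the mixture against octanal, Col8a2 stood at -0.41 (-0.59 to -0.23, adjusted p = 0.157), Col6a1 at -0.31 (-0.46 to -0.17, adjusted p = 0.162) and Col28a1, an unclassed minor collagen, at -0.84 (-1.34 to -0.33, adjusted p = 0.214). For the mixture against cis-3-hexenol, Col6a3 stood at -0.82 (-1.17 to -0.47, adjusted p = 0.349), Col6a1 at -0.33 (-0.48 to -0.19, adjusted p = 0.349) and Col3a1 at -0.44 (-0.65 to -0.22, adjusted p = 0.393). These intervals leave room for differences of these sizes.

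Decanal and octanal are straight-chain aldehydes that differ in chain length, given at the same volume for the same time, and their collagen responses were compared as a difference of differences over all 24 libraries. The decanal response was above the octanal response in 22 of 42 members and below it in 0 (22 of 42 higher, against 21.2% of all genes, with 39.2% called in either direction). They were 9 fibrillar genes, 13 genes of other types and 0 of type IV. With length and GC offsets Col7a1 (0.51, adjusted p = 0.254), Col6a5 (adjusted p = 0.108), Col24a1 (adjusted p = 0.0603) and Col14a1 (adjusted p = 0.056) lost the call, and Col14a1 also with DESeq2's size factors (adjusted p = 0.06). Col10a1 differed most, by 2.58 (SE 0.68, adjusted p = 0.00391), then Col11a2 by 2.17 (SE 0.27, adjusted p = 1.23e-06), Col5a1 by 1.96 (SE 0.24, adjusted p = 1.26e-06) and Col1a2 by 1.86 (SE 0.21, adjusted p = 4.9e-07). Col4a1, lower after both aldehydes, differed by 0.44 (SE 0.21, adjusted p = 0.0985), Col4a2 by 0.62 (SE 0.27, adjusted p = 0.0704) and Col18a1 by -0.16 (SE 0.17, adjusted p = 0.495), none past the test. Each response is measured against the control of its own table, so a difference between the 2 control groups enters this contrast in full. The aldehyde cannot be told apart from the table or any batch that goes with it.

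**Figure D4:**
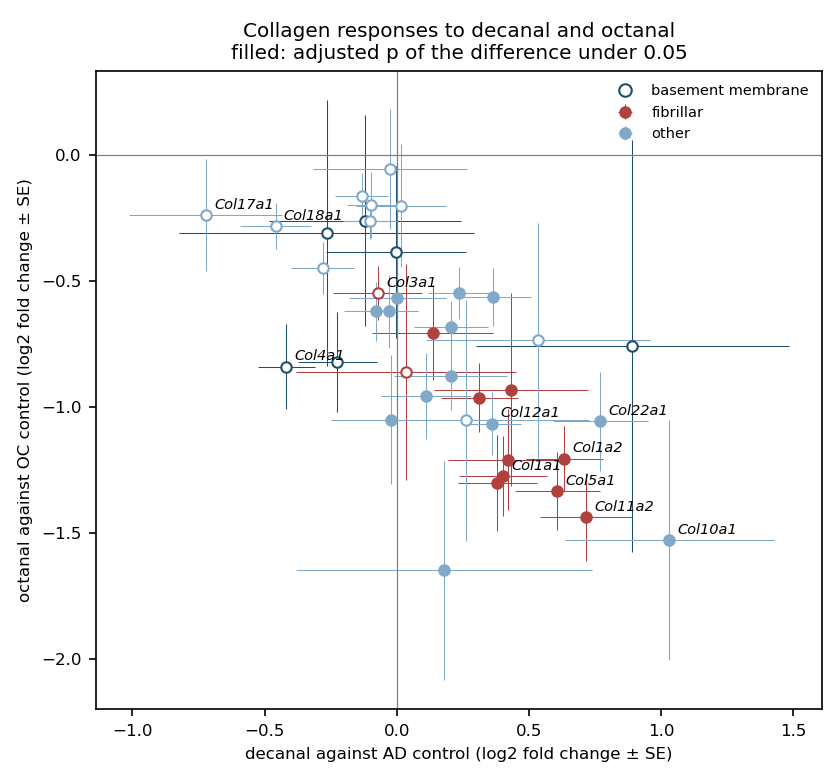
Log2 fold change with SE of the 40 collagen genes tested in both tables, for decanal against AD control (x axis) and octanal against OC control (y axis), coloured by class. Filled points, with an adjusted p of the difference under 0.05, lie mainly at the lower right, with Col11a2 at 0.71 and -1.44, and the type IV genes are open.

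Other genes of collagen biology were called in numbers that are read against the shares of all genes: 11.4% higher and 12.5% lower after decanal, 10.6% and 11.6% in the AD mixture, 14.4% and 15% after octanal, 5.56% and 6.65% after cis-3-hexenol and 11.5% and 12.7% in the OC mixture. Of the 20 tested genes of collagen synthesis and export, 1 was higher and 1 lower after decanal, 3 and 1 in the AD mixture, 2 and 6 after octanal, 1 and 1 after cis-3-hexenol and 1 and 7 in the OC mixture. Serpinh1, the collagen chaperone HSP47, was at 0.32 (SE 0.09, adjusted p = 0.0253) in the AD mixture, at -0.40 (SE 0.08, adjusted p = 0.00267) after octanal, at -0.35 (SE 0.08, adjusted p = 0.0177) after cis-3-hexenol and at -0.59 (SE 0.08, adjusted p = 0.000335) in the OC mixture. Mia2, which helps load procollagen for export, went the other way, at -0.20 (SE 0.06, adjusted p = 0.039) in the AD mixture and 0.33 (SE 0.06, adjusted p = 0.000851) after octanal. Of the genes of procollagen cleavage and crosslinking, 3 of 12 were higher in the AD mixture and 4, 3 and 5 of 10 lower after octanal, cis-3-hexenol and the OC mixture. Adamts2, a procollagen N-proteinase, was at -0.57 (SE 0.11, adjusted p = 0.00117), -0.38 (SE 0.11, adjusted p = 0.0303) and -0.84 (SE 0.11, adjusted p = 0.000188) in these 3.

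Of 10 tested breakdown genes and inhibitors, 5 were higher after decanal and 6 in the AD mixture (against 11.4% and 10.6% of all genes), and 9, 3 and 9 were lower after octanal, cis-3-hexenol and the OC mixture (against 15%, 6.65% and 12.7%). Ctsk, the osteoclast protease that cuts collagen, was at 0.66 (SE 0.13, adjusted p = 0.00196) after decanal, 0.88 (SE 0.13, adjusted p = 0.000222) in the AD mixture and -0.84 (SE 0.13, adjusted p = 0.000302) after octanal. Timp1, an inhibitor of metalloproteinases, was at 0.69 (SE 0.17, adjusted p = 0.00843), 0.97 (SE 0.17, adjusted p = 0.00081) and -1.10 (SE 0.15, adjusted p = 0.00021) in the same 3. Fibril partners were higher for 2 and 4 of 9 genes after decanal and the AD mixture and lower for 4, 2 and 7 of 9 in the OC comparisons. Sparc, a collagen-binding protein rich in bone, led them at 0.58 (SE 0.10, adjusted p = 0.000588), 0.79 (SE 0.10, adjusted p = 5e-05), -0.996 (SE 0.13, adjusted p = 0.00013), -0.62 (SE 0.13, adjusted p = 0.00752) and -0.85 (SE 0.13, adjusted p = 0.000375). Of 12 partners of type IV in basement membranes, 2 were higher and 1 lower after decanal and in the AD mixture each, and 5, 2 and 9 were lower in the OC comparisons, with Hspg2 (perlecan) at -1.38 (SE 0.23, adjusted p = 0.000539), -0.90 (SE 0.22, adjusted p = 0.0183) and -1.58 (SE 0.23, adjusted p = 0.00034). Of the collagen receptors, 1 of 8 was lower after decanal and 1 of 8 higher in the AD mixture, and 4, 3 and 3 of 9 were lower in the OC comparisons, among them Ddr2, a receptor for fibrillar collagen, at -0.57 (SE 0.13, adjusted p = 0.00489) after octanal. After acetophenone 0 genes of these 6 lists were called in edgeR, while the summed level of the breakdown genes, 530 to 607 CPM, lay below the 619 to 653 CPM of the AD controls.

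Markers of some non-epithelial cell types were higher or lower in the same comparisons as the collagens, and others were not. The shares of all genes called, for all list counts given here, were 11.4% higher and 12.5% lower after decanal, 10.6% and 11.6% in the AD mixture, 14.4% and 15% after octanal, 5.56% and 6.65% after cis-3-hexenol and 11.5% and 12.7% in the OC mixture. The summed level of 9 osteoblast and osteocyte genes was 278 to 302 CPM in the AD controls, 249 to 273 after acetophenone, 372 to 430 after decanal and 408 to 551 in the AD mixture. In the OC table it was 340 to 489 CPM in the controls, 226 to 285 after octanal, 303 to 342 after cis-3-hexenol and 244 to 290 in the mixture. Osteoblast genes were higher for 4 and 6 of 9 after decanal and the AD mixture and lower for 5, 3 and 6 of 9 in the OC comparisons, with Bglap (osteocalcin) at 0.88 (SE 0.10, adjusted p = 4.26e-05), 1.24 (SE 0.10, adjusted p = 2.87e-06), -1.04 (SE 0.15, adjusted p = 0.000279), -0.56 (SE 0.15, adjusted p = 0.028) and -0.67 (SE 0.15, adjusted p = 0.0053). None of the 9 genes was at 0 in any library. Osteoclast genes were higher for 3 and 4 of 6 in the AD table and lower for 3, 0 and 3 of 6 in the OC table. Ctsk and Mmp9 are in both the osteoclast and the breakdown list. Dcn and Lum are in both the fibroblast and the fibril partner list, so values of such lists are not separate observations. OC control 1, highest in type I collagen, was also highest in the osteoblast list, at 489 CPM, and in the 4 erythroid genes, at 4121 CPM, beside 1978 CPM in the lowest OC control.

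The erythroid genes summed to 453 to 594 CPM in the AD controls, 213 to 573 after acetophenone, 1970 to 2367 after decanal and 1636 to 2316 in the AD mixture, and to 1978 to 4121 CPM in the OC controls, 689 to 1034 after octanal, 1185 to 1781 after cis-3-hexenol and 771 to 1666 in the OC mixture. The 7 neutrophil and marrow genes had 6 higher after decanal and the AD mixture each, and 6, 0 and 5 lower in the OC comparisons, with AD control sums spread from 164 to 611 CPM. Fibroblast genes moved less, with sums of 442 to 484 CPM in the AD controls, 447 to 522 after acetophenone, 450 to 516 after decanal and 505 to 544 in the AD mixture. In the OC table they summed to 487 to 639 CPM in the controls and 471 to 509 in the odorant groups. At most 1 of the 6 fibroblast genes was at 0 in a library. After acetophenone, where the collagen share was 0.168% against 0.166% in its controls, 0 genes of the marker lists were called, while several sums lay below the AD controls without overlap. They were 78.0 to 98.5 against 106 to 119 CPM for osteoclast, 15.4 to 16.6 against 19.3 to 21.7 CPM for chondrocyte and 27.6 to 33.2 against 36.9 to 39.7 CPM for endothelial genes. The osteoblast and osteocyte sum was among them, at 249 to 273 against 278 to 302 CPM. So was the ensheathing and Schwann cell sum, at 166 to 247 against 254 to 277 CPM. In the AD mixture, where collagens rose, the endothelial sum of 35.2 to 35.8 CPM also lay below the controls, with 0 genes called, and 2 of 5 ensheathing and Schwann cell genes were lower. The 5 endothelial genes summed to 54.4 to 58.6 CPM in the OC controls and 30.5 to 40.1 CPM in the 9 OC odorant libraries, without overlap, and Cldn5, a tight junction gene of vessels, changed by -1.07 (SE 0.08, adjusted p = 1.49e-05), -0.71 (SE 0.08, adjusted p = 0.0018) and -1.08 (SE 0.08, adjusted p = 1.48e-05). Mural genes summed to 766 to 997 CPM in the OC controls and 656 to 761 CPM in the OC odorant groups. The 7 chondrocyte genes summed to 19.3 to 21.7 CPM in the AD controls, 21.5 to 37.6 after decanal and 20.5 to 25.2 in the AD mixture. They summed to 22.4 to 37.1 CPM in the OC controls, 15.9 to 19.6 after octanal, 21.8 to 28.7 after cis-3-hexenol and 18.2 to 20.5 in the OC mixture. None of the 5 tested was called in the AD mixture or after cis-3-hexenol, and at most 2 of the 7 were at 0 in a library. Ensheathing and Schwann cell genes were lower for 3, 1 and 1 of 5 in the OC comparisons. The olfactory sensory neuron genes summed to 15182 to 16966 CPM in the OC controls and 12971 to 14630 CPM in the OC odorant groups, without overlap. The other epithelial lists did not move together, with sustentacular sums of 1862 to 2770 CPM in the OC controls and 2766 to 3330 in the OC odorant groups, and Krt5, a basal cell keratin, at -0.50 (SE 0.07, adjusted p = 0.000315) in the OC mixture. The part of these cell types in the collagen values was not tested.

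**Figure D5:**
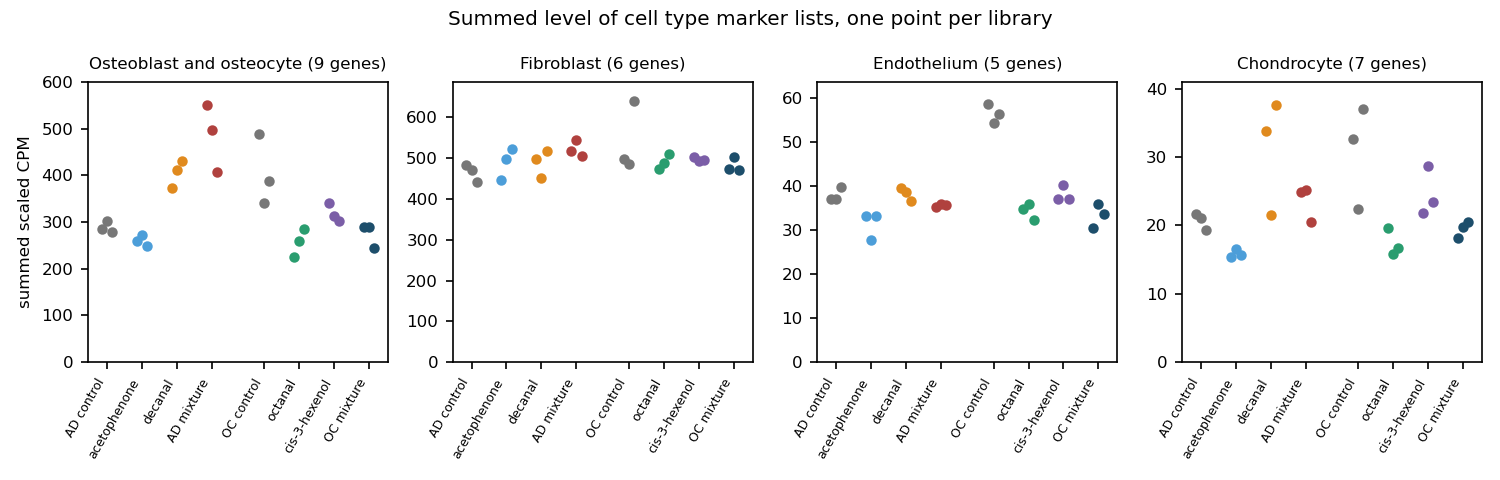
Summed level in CPM (y axes, from 0) of the osteoblast and osteocyte, fibroblast, endothelial and chondrocyte marker lists in each of the 24 libraries (points, by group along the x axis). The osteoblast sum is 408 to 551 CPM in the AD mixture against 278 to 302 in its controls, and the endothelial sum is 54.4 to 58.6 CPM in the OC controls against 30.5 to 40.1 in the OC odorant libraries.

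The genes whose levels followed 3 collagens most closely are given as a description over the 12 libraries of a table, which share groups and scaling. In the AD table the genes closest to Col1a1 included Col1a2 (Pearson r = 0.96), Serpinh1 (0.94), Id2 (0.93) and Auts2 (0.93). In the OC table they included Col1a2 (0.99), Col11a2 (0.99), Trp53i13 (0.97) and Col5a2 (0.97). Col4a1 was followed by Fblim1 (0.85), Ptdss1 (0.85), Nid1 (0.83), Nop58 (0.82) and Tnfrsf19 (0.82) in the AD table and by Wif1 (0.96), Extl1 (0.96), Palld (0.96), Arhgef5 (0.96) and Hdac4 (0.95) in the OC table. Col6a1 was followed by Tmem184a (0.92), Sh3d19 (0.90), Myo1d (0.88), Gfra2 (0.88) and Itgbl1 (0.86) in the AD table and by Lamb2 (0.97), Col8a2 (0.95), Pdgfrb (0.95), Ptgs1 (0.95) and Herc2 (0.94) in the OC table. Among the genes given here, Col1a2 alone stood beside the same collagen in both tables.

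Ratios of chains of one collagen were steady for some chain pairs and not for others. Col1a2 over Col1a1 was 1.40 ± 0.152 in the OC controls (SD, n = 3) and 1.44 ± 0.0590, 1.48 ± 0.0851 and 1.49 ± 0.0474 after octanal, cis-3-hexenol and the mixture, each mean within the range of the control libraries, 1.25 to 1.56. In the AD table it was 1.20 ± 0.0687 in the controls, 1.21 ± 0.0589 after acetophenone, 1.43 ± 0.114 after decanal and 1.34 ± 0.0954 in the mixture. The lowest decanal library, at 1.30, lay above the highest control, at 1.28. Col4a1 over Col4a2 was 1.35 ± 0.102 in the OC controls and 1.35 ± 0.138, 1.30 ± 0.243 and 1.28 ± 0.385 in the OC odorant groups. The ratio of type III to type I, Col3a1 over Col1a1, was 0.131 ± 0.0128 in the OC controls and 0.213 ± 0.0142, 0.187 ± 0.0273 and 0.186 ± 0.0363 in the OC odorant groups, with the highest control at 0.140 below the lowest odorant library at 0.155. In the AD table it was 0.225 ± 0.0338 in the controls, 0.165 ± 0.0169 after decanal and 0.153 ± 0.0224 in the mixture, again without overlap. Col6a1 over Col6a3 was 4.11 ± 0.620 in the OC controls, with a highest library of 4.72, and 6.56 ± 0.350 after octanal, with a lowest of 6.24. It was 4.44 ± 0.189 after cis-3-hexenol and 6.60 ± 2.25 in the OC mixture. In the AD table this ratio was 5.65 to 6.13 in the controls and 4.17 to 6.37 after decanal, with overlap. It lay above the controls after acetophenone (6.77 to 7.79), where no collagen was called, and below them in the AD mixture (3.62 to 4.53). Col9a1 over Col9a2 was 1.55 ± 0.164 in the OC controls and 2.01 ± 0.345 after octanal, also without overlap. Col5a1 over Col5a2 and Col6a1 over Col6a2 also separated from the OC controls after octanal, and some ratios computed are not given here. Ratios were compared by their ranges, with no test.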

How the data were processed

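Values were estimated counts per gene in 2 deposited tables of 12 libraries each, whose sample titles name an AD condition and an OC condition. The submitters' processing notes name STAR 2.7.10b, Salmon 1.10.1, R 4.4.2 and GRCm39; their roles, and whether counting used the strand of the stranded libraries, are not given in the sources used here. Of the deposited expected counts, 12.8% (AD) and 12.6% (OC) were not whole and were rounded. Symbols, transcript length and GC content came from GENCODE M21 on GRCm38 by Ensembl ID, which named 52029 of 57010 genes. No coordinate was carried between builds.

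Each table was fitted once over its 4 groups in edgeR 4.0.16 (R 4.3.3) with filterByExpr, TMM scaling and the quasi-likelihood test. Adjusted p-values are Benjamini-Hochberg over the 19525 (AD) or 19175 (OC) genes tested, with a threshold of 0.05, and intervals are 2 SE either side. The labels call the libraries of a group biological replicates and do not name the animals, so p-values measure the spread between these samples. The difference of the decanal and octanal responses was fitted over 24 libraries and 20018 genes. Shares of counts used a two-sided exact permutation test. On simulated counts the fit found 98% of 2-fold and 81% of 1.5-fold changes for decanal against control (7 false of 186 calls, 19525 genes) and 97% and 74% for octanal (5 of 176, 19175 genes). The simulation changed 100 genes per fold, as many up as down, all with a mean above 5 CPM. Far more genes were called in the data, and several collagens lie under 5 CPM, so these rates do not hold for those members.

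Alternatives were DESeq2 1.42.0 (size factors and Wald test), no filter, a filter of 1 CPM in 3 libraries, a replicate block, offsets for length and GC content (loess span 0.3), with and without the block, the 6 libraries of a comparison alone, and leaving out each library. The DESeq2 and block fits between odorants were added after the data were seen. Members and lists were chosen with earlier results of these data known. By-library values were given for up to 12 called members of smallest p and the 3 highest of each class, and outside that rule, after their values were seen, for Col22a1, Col18a1, Col17a1 and further members where a sentence turns on them. In each comparison up to 10 called members of largest change were named with SE and adjusted p, or the 3 of smallest p where none was called. Of each other list up to 4 called genes of smallest p could be named. Genes most like a collagen had to have a mean of at least 10 CPM, and some of them are not reported here. No protein sequence was used here.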

Additional observations from a re-analysis of the deposited data

Results flagged for a closer look

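The decanal and octanal responses, each against the no-odor control of its own table, differed in 22 of 42 collagen genes by edgeR's quasi-likelihood test of the difference itself (adjusted p under 0.05). Of all 20018 genes tested 39.2% differed, and 21.2% had the higher response after decanal. Values are the decanal minus the octanal log2 fold change. Among fibrillar genes it was 1.86 for Col1a2, 1.69 for Col1a1, 1.96 for Col5a1, 1.30 for Col5a2, 1.70 for Col11a1, 2.17 for Col11a2, 1.65 for Col27a1, 1.38 for Col24a1 and 0.86 for Col2a1. Among fibril-associated genes it was 1.45 for Col12a1, 1.85 for Col22a1, 0.91 for Col16a1, 0.59 for Col14a1, 0.80 for Col9a3 and 0.95 for Col9a2. Among the rest it was 1.09 for Col6a3, 0.56 for Col6a2, 1.84 for Col6a5, 0.61 for Col8a1, 2.58 for Col10a1, 1.05 for Col7a1 and 1.1 for Col13a1. With length and GC offsets 4 of these were not called, Col7a1 (0.51), Col6a5 (1.49), Col24a1 (1.22) and Col14a1 (0.54), and Col14a1 also not with DESeq2's size factors. The 2 responses come from different tables, and these, with any batch that goes with them, cannot be told apart from the aldehydes here.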

How the results depend on the processing

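No collagen was called higher against the OC control in any of the settings tried. After decanal 7 of 42 became 14 of 44 with no low-count filter (all genes 5002 of 33134) and ranged from 4 to 9 when single libraries were left out, with 4 without AD control 2 or decanal 3. Over all genes the decanal calls then ranged from 3391 to 4145, beside 4660 with every library. In the AD mixture 10 became 16 with no filter (all genes 4722 of 33134). After cis-3-hexenol 21 became 12 with length and GC offsets and 10 with those offsets and the replicate block, and ranged from 11 to 23 when single libraries were left out. All genes called there went from 2341 to 1270 and 863 with the offsets. They ranged from 533 to 3150 when single libraries were left out. With DESeq2's Wald test, added after the data were seen, 1 member was called for cis-3-hexenol against octanal, 2 for the OC mixture against octanal and 1 for the OC mixture against cis-3-hexenol, where edgeR called 0. The cause of these shifts was not tested. With the replicate block the counts were 0, 8 and 10 for acetophenone, decanal and the AD mixture and 27, 19 and 31 for octanal, cis-3-hexenol and the OC mixture. Over all genes that block gave 1, 4480 and 4240, and 5196, 1883 and 4276, in the same order. Deviations of libraries from their group means correlated with those of the control of the same number from -0.186 to 0.240. With so few libraries in a group this cannot decide whether the numbers pair the samples. Of all recomputed counts, shares and differences 224 stayed within the limits set for them and 12 moved. Among values for named genes 638 kept their side of the threshold, 60 fell short of it and 0 reversed. Depth limits the low members, such as Col4a4 and Col4a6, where only large changes could be detected.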
